A study of Mus musculus with 3 samples.

Results

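Prostaglandins are made and sensed in skin by enzymes and receptors that different cell types express. Here 10 genes of this pathway, of 32285 genes in the count table, were followed across the cell types of mouse dorsal skin: the cyclooxygenases Ptgs1 and Ptgs2, the terminal synthases Ptges, Ptgds and Ptgis, the degrading enzyme Hpgd, and the receptors Ptger2, Ptger3, Ptger4 and Ptgfr. They were chosen by name and function, with earlier results of these data known. Single-cell RNA sequencing (10x Genomics 3′ v3.1) had been run on dissociated full-thickness dorsal skin of wild-type C57BL/6J mice labelled female and 8 weeks of age at the start, with 1 library for each of 3 conditions. CON skin was not irradiated. UV skin was irradiated on alternate days over 12 weeks with a mixture of UVB (290 to 315 nm) at 3.5 mW/cm2 and UVA (315 to 400 nm) at 0.6 mW/cm2. Rux skin received the same irradiation and, right after each exposure, an ointment with 1.5% ruxolitinib, an inhibitor of the kinases JAK1 and JAK2. By the study's design scheme, CON and UV skin were given the ointment base (DMSO in Aquaphor) without the drug. With 1 library per condition there is no test between conditions, and the number of mice behind a library is not given in the sources used here, so differences between animals, libraries and treatments cannot be told apart.

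Prostaglandin synthesis starts when phospholipases release arachidonic acid from membranes. Cyclooxygenases turn it into prostaglandin H2, with Ptgs1 the form that many cells make steadily and Ptgs2 the form that cytokines, growth factors and injury induce. Terminal synthases then make the separate products: Ptges makes prostaglandin E2, Ptgds prostaglandin D2 and Ptgis prostacyclin. Hpgd oxidises prostaglandins to inactive forms, and the G-protein coupled receptors EP2, EP3 and EP4 (Ptger2, Ptger3 and Ptger4) sense prostaglandin E2 while FP (Ptgfr) senses prostaglandin F2α. In skin, prostaglandins are known for their part in sunburn erythema, pain and inflammation, and for effects on hair growth.

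The files held 13170 cells with 165337289 UMIs (unique molecular identifiers, each standing for 1 captured transcript) in CON, 12411 cells with 133972374 UMIs in UV and 11287 cells with 131570327 UMIs in Rux. After filters and doublet removal 10777, 10231 and 9299 cells were kept, 30307 in all, with medians of 7530, 7616 and 9443 UMIs. Between 28 and 50 cell barcodes were shared by any pair of libraries, at most 0.403% of the smaller one. Xist, which female cells transcribe from an inactive X chromosome, was at 0.0925, 0.121 and 0.112 UMIs per 1000000 UMIs (CPM) in CON, UV and Rux, and the Y-linked Ddx3y at 110.2, 116 and 122 CPM, so all 3 libraries went against the sex label. Cells fell into 44 clusters, of which 39 carried enough of a fixed marker list to be called after a class and 5, with 11.6%, 9.11% and 7.15% of the cells of CON, UV and Rux, stayed unnamed. Fibroblast-like (FB-like) cells made up 31.5% of CON, 49.8% of UV and 53.8% of Rux cells, and epithelial-like (EPI-like) cells 33.9%, 18.9% and 17.4%. The makeup of the FB-like class differed between libraries: cluster 0 (led by C7, Myoc and Inmt) held 44.9% of them in CON but 16.3% in UV and 18.4% in Rux, while cluster 5 (Sntg1, Smpd3 and Cxcl13) held 21.4% in UV against 3.62% in CON and 7.10% in Rux. Of the 1571 cells in cluster 5, 1093 came from the UV library. Levels below are the UMIs of a gene per 1000000 UMIs of the class in a library, that is CPM, with exact 95% Poisson intervals in brackets. Shares of cells with a UMI are given after every cell was thinned to 2000 UMIs. All intervals cover counting error only.

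By the GENCODE M21 annotation of GRCm38 the members are protein-coding genes on 6 chromosomes. Ptgs2 lies at chr1:150100031-150108227 on the plus strand, and its antisense neighbour Ptgs2os starts 67 bases away and runs the other way. Ptgds (chr2:25466709-25470046, minus), Ptges (chr2:30889471-30929863, minus), Ptgs1 (chr2:36230426-36252272, plus) and Ptgis (chr2:167191805-167240604, minus) share chromosome 2. Ptgfr (chr3:151796502-151837630, minus) and Ptger3 (chr3:157566892-157645888, plus) share chromosome 3. Hpgd lies at chr8:56294585-56321043 (plus), Ptger2 at chr14:44988195-45003820 (plus) and Ptger4 at chr15:5206661-5244187 (minus). Ptger2 lies whole within the antisense gene Gm17173, and 11676 bases of Ptger4 overlap Ttc33 on the other strand. Ptgis overlaps 1110018N20Rik over 1004 bases and Gm14291 over 1224 bases, both on the other strand and both in the count table. Whether the counting used strand is not given in the sources used here, so reads of these overlapping pairs may be mixed.

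The start of Ptgs2 is printed because the space between it and Ptgs2os is shared, and both genes had like patterns across classes. RefSeq promoter windows (GRCm38.p6) were at hand for 9 of the 10 members. The first line holds the 250 bases before the annotated start, with the only upstream match to a searched motif in capitals. The second line holds the 26 bases at chr1:150100037-150100062 (plus), after that annotated start, with 2 overlapping matches in capitals.
Ptgs2 upstream, chr1:150099781-150100030 (plus): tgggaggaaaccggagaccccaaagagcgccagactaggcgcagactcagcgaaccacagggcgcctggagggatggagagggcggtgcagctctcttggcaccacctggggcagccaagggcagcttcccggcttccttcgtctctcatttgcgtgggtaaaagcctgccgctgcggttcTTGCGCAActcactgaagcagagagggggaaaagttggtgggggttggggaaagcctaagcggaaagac
Ptgs2 after the start: accactaCGTCACGTGgagtccgctt

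The 7 motifs, searched on both strands after the letters had been seen, were the full cyclic AMP response element TGACGTCA, its half-site TGACG, the E-box CACGTG, the C/EBP site TTGCGCAA, the AP-1 site TGANTCA, the TATA box TATAAA and the STAT-type GAS site TTCNNNGAA. Ptgs2 held the C/EBP letters at position -69, which 0.183% of 32851 promoter windows of 300 bases also hold. After the annotated start it held the half-site at position 14 (read on the minus strand, 20.8% of windows) and the E-box at position 17 (7.15%), which overlap. Positions are counted from the annotated start, and where transcription begins was not measured here. The only other matches among the members were an AP-1 site of Ptgds at position -35 (7.81%) and TATA box letters of Hpgd at position 5 (13.6%). The GAS letters, held by 8.30% of windows, and the full response element, held by 1.79%, were in none of the 9. A match is a description of letters and shows no binding.

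**Figure D1:**
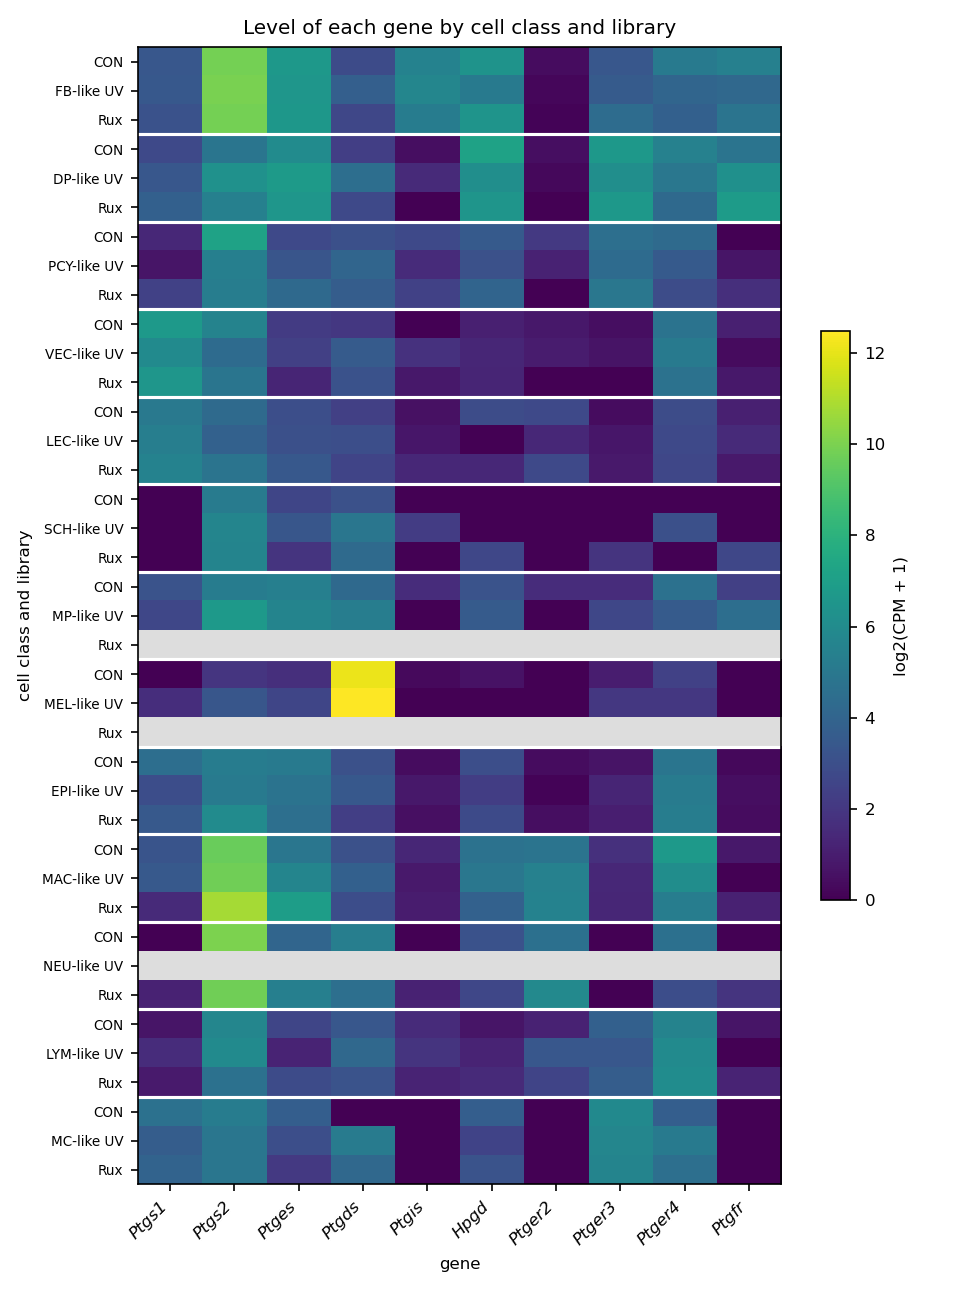
Level of each of the 10 genes as log2(CPM + 1), by colour, in each cell class (rows, 1 line per library in the order CON, UV, Rux); grey marks fewer than 50 cells. Ptgds is brightest in melanocyte-like cells, Ptgs2 in macrophage-, neutrophil- and FB-like cells, and Ptgis is near 0 outside FB-like cells.

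Each gene had its own class pattern. Averaged over the libraries with at least 50 cells, Ptges and Ptgis were highest in FB-like cells, Hpgd, Ptger3 and Ptgfr in dermal papilla-like (DP-like) cells, the hair-inducing mesenchyme of the follicle, Ptgs2 and Ptger4 in macrophage-like (MAC-like) cells, Ptger2 in neutrophil-like (NEU-like) cells, Ptgs1 in vascular endothelial-like (VEC-like) cells and Ptgds in melanocyte-like (MEL-like) cells. Epithelial cells were taken as 1 class in this order. For 4 of these 10 the leading class stood clear, with its lowest library above every library of the next class: Ptgs1 in VEC-like, Ptgds in MEL-like, Ptgis in FB-like and Ptger3 in DP-like cells. For Ptgs1 this holds among whole classes only, since the KS-like group within the epithelium, described below, was higher. For Ptger3 the next class, mast cell-like cells, rested on 57 UMIs in all, so the gap between the 2 classes is uncertain. For the other 6 the ranges over libraries overlapped. Hpgd was still higher in DP-like than in FB-like cells in each library, though with overlapping intervals in Rux. For the rest the order of the first and next class turned between libraries, so it is within their spread.

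Ptgs2, the inducible cyclooxygenase, was abundant in 3 classes. FB-like cells had 932 CPM [919 to 944] in CON, 996 [986 to 1006] in UV and 919.6 [912 to 928] in Rux, and 49.1%, 45% and 45.6% of them had a UMI after thinning (62.6%, 59.9% and 65.0% before, at medians of 6146, 7367 and 10001 UMIs per cell). In IRS-like cells (hair matrix and inner root sheath), taken as a background class, 1.97%, 3.28% and 1.49% had one, at medians of 23266, 22282 and 25407 UMIs before thinning. The pooled FB-like level thus differed little between conditions. Its log2 ratios were 0.10 [0.07 to 0.12] for UV over CON, -0.11 [-0.13 to -0.10] for Rux over UV and -0.02 [-0.04 to 0.00] for Rux over CON. Over all retained cells, in contrast, Ptgs2 was at 209.5 CPM in CON, 386 in UV and 543 in Rux, a log2 ratio of 1.37 for Rux over CON. FB-like cells held 75.4%, 87.9% and 82.2% of the Ptgs2 UMIs of these libraries, and their share of cells differed as given above.

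Within FB-like cells Ptgs2 was unevenly spread. The 5% of FB-like cells with most Ptgs2 held 34.8%, 37.1% and 35.6% of its UMIs in CON, UV and Rux, and the highest single cell had 109, 169 and 158 UMIs. Cluster 5 had 2955 CPM in CON, 1615 in UV and 1414 in Rux, and cluster 8 (Arhgap20, Sult1e1 and Ptx3) 1879, 1868 and 1301. Cluster 14 (Lrrc15 and Col11a1) had 21.3, 39.0 and 54.7 CPM. These clusters of 1 class thus lay far apart in each library. Cluster 0, the largest in CON, had 913 CPM in CON, 340.1 in UV and 724 in Rux, and Ptgs2 was lower in UV than in CON in 6 of the 8 FB-like clusters with at least 50 cells in both. With the clusters given their CON shares, the FB-like UV over CON ratio was -0.62, of the other sign. The Rux over UV ratio also turned sign, at these shares and with equal weight per cell, to as high as 0.45. Rux was above UV in 5 of the 9 FB-like clusters compared and below it in 4.

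**Figure D2:**
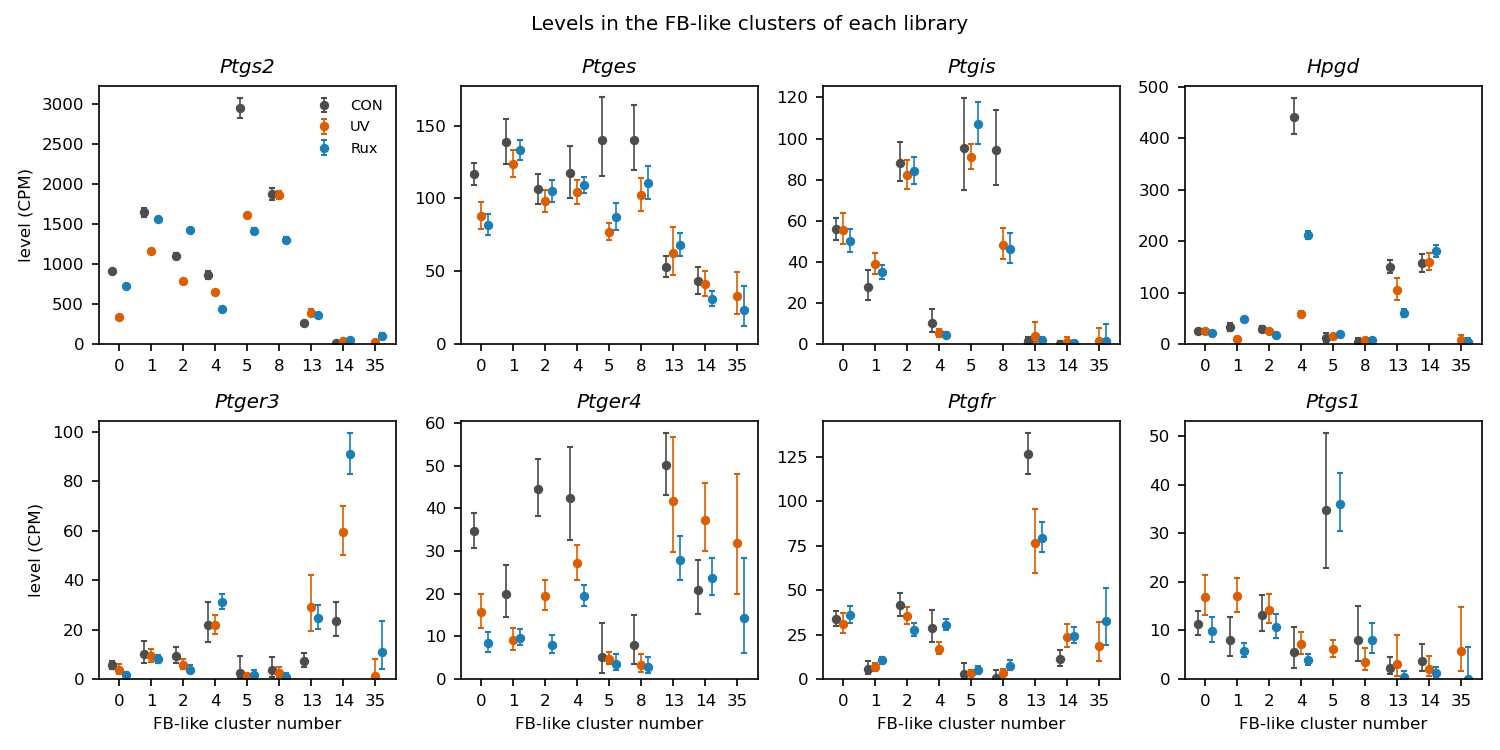
Level in CPM (y axis, from 0) of 8 genes in each FB-like cluster (x axis, cluster number) with at least 50 cells, by library, with exact 95% Poisson intervals as bars. Ptgs2 runs from 21.3 CPM in cluster 14 to 2955 in cluster 5 of CON, while Hpgd is highest in cluster 4 of CON at 442.

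MAC-like cells had 783 CPM [735 to 832] of Ptgs2 in CON, 878 [827 to 931] in UV and 1771 [1726 to 1817] in Rux. The Rux library stood apart, with log2 ratios of 1.01 [0.92 to 1.11] over UV and 1.18 [1.08 to 1.28] over CON, and 60.5% of its MAC-like cells had a UMI after thinning against 35.8% in CON and 42.8% in UV. These values rest on 388 MAC-like cells in Rux, 210 in CON and 189 in UV. Beside them, the summed fibroblast markers in MAC-like cells (7 of 7 detected in each library) were at 916, 753 and 599 CPM in CON, UV and Rux. Their part in the result was not tested. The summed neutrophil markers were at 85.3, 79.7 and 179.7 CPM with 4, 4 and 5 of 7 detected, Cxcr2 and Ly6g at 0 in all 3 and Retnlg at 0 in CON and UV, and their part in the result was not tested. Summed dendritic cell markers in the MAC-like class (7, 8 and 8 of 8 detected, Clec9a at 0 in CON) were at 6250, 6682 and 3965 CPM, and Langerhans cell markers (4, 5 and 5 of 5, H2-M2 at 0 in CON) at 6092, 6637 and 3968. Both lists hold Cd74, so these sums are not separate measures of cell makeup. Both were lowest in Rux, and their part in the result was not tested. NEU-like cells had 1037 CPM of Ptgs2 in CON (50 cells) and 879 in Rux (224 cells), with overlapping intervals.

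Of the named epithelial groups, basal keratinocyte-like (KB-like) cells had the most Ptgs2. Their level was 126 CPM [118 to 134] in CON, 125 [114 to 137] in UV and 219 [205 to 235] in Rux. Rux was higher by a log2 ratio of 0.81 [0.64 to 0.97] over UV, with 13.8%, 13.2% and 26.3% of cells positive after thinning. The group held 2 clusters in unlike proportions: cluster 20, with 467, 24 and 74 cells in CON, UV and Rux, and cluster 32, with 83, 82 and 59. In cluster 32 the levels were 74.6, 114 and 195 CPM, so there CON and UV were not level. Epithelial-like cluster 36, which had no named group, was at 139 CPM in UV (58 cells) and 286 in Rux (142 cells). Upper follicle-like (UHF-like) cells had 20.3, 30.6 and 55.2 CPM, a log2 ratio of 1.44 [1.13 to 1.77] for Rux over CON. Pericyte-like (PCY-like) cells went the other way, with 144 CPM in CON, 40.4 in UV and 37.8 in Rux. DP-like cells had 27.4, 77.9 and 41.9 CPM.

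**Figure D3:**
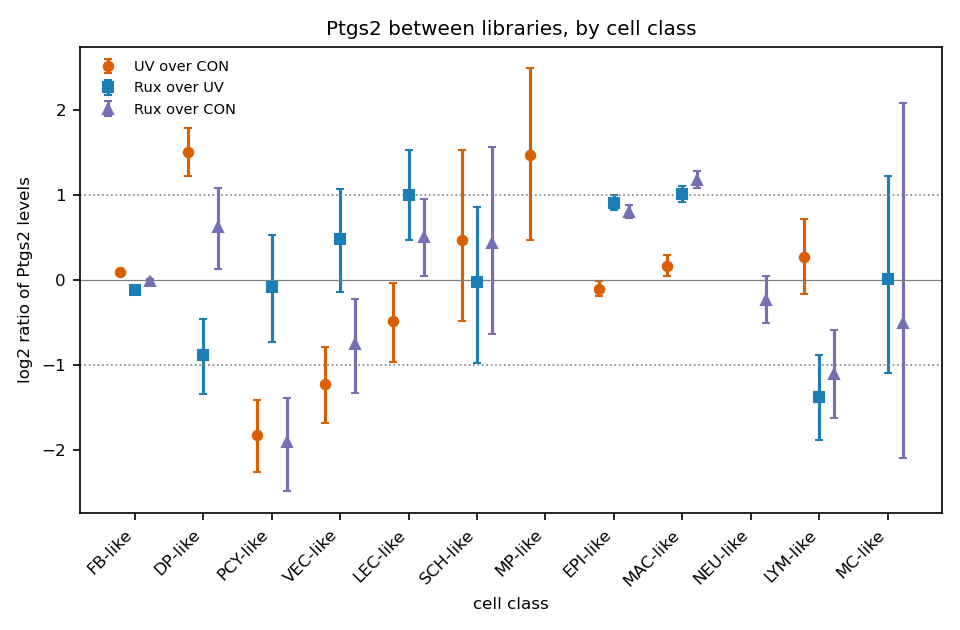
Log2 ratio of Ptgs2 levels (y axis) for UV over CON, Rux over UV and Rux over CON in each cell class (x axis) with enough counts, with 95% counting intervals as bars and dotted lines at 2-fold. FB-like ratios sit near 0, Rux over CON is 1.18 in MAC-like and -1.91 in PCY-like cells, and no ratio has a replicate.

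Ptgs2 is a textbook early response gene, so 11 immediate-early genes (Fos, Fosb, Jun, Junb, Egr1, Atf3, Ier2, Ier3, Dusp1, Zfp36 and Nr4a1), which tissue dissociation is also known to induce, were read beside it. In FB-like cells 6 of the 11 were at least 2-fold lower in UV than in CON, where 2.25% of all genes read were, and none higher, with a median log2 ratio of -1.10 against -0.11 over all genes with enough counts. For Rux over CON 5 of the 11 were lower, where 3.54% of all genes read were, with a median of -0.97 against -0.08, and for Rux over UV none passed 2-fold. Fos, for example, was at 3695 CPM in CON, 1722 in UV and 1892 in Rux. With the FB-like clusters given their CON shares, UV over CON log2 ratios were -0.57 for Fos and -0.96 for Nr4a1, within 2-fold. Those of Junb, Egr1, Ier2 and Zfp36 lay between -1.19 and -1.04. At these shares the Rux over CON ratios of Junb, Egr1, Ier2, Ier3 and Zfp36 lay between -1.29 and -1.06. The FB-like level of Ptgs2 lay between 919.6 and 996 CPM in the 3 libraries, although, as given above, it was lower in UV than in CON in 6 of 8 clusters and at CON cluster shares. The part of dissociation in the Ptgs2 levels was not tested.

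Ptgs2os, the antisense neighbour, was at 41.1 CPM in CON, 74.9 in UV and 49.9 in Rux in FB-like cells, at 13.8, 10.3 and 24.8 in MAC-like cells, and at 1.08, 1.58 and 1.62 in EPI-like cells. Over the 38 class and library sums with at least 50 cells it was among the 3 genes closest to Ptgs2 of 15159 compared, with Pearson r of log2(CPM + 1) of 0.86, beside Il1r2 (0.86) and Plac8 (0.84). These sums share libraries and depth, so the r values are descriptions.

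Ptgs1, the constitutive cyclooxygenase, was highest among whole classes in VEC-like cells at 105 CPM [92.6 to 118] in CON, 62.6 [54.4 to 71.8] in UV and 93.3 [77.9 to 111] in Rux. The UV level was lower by a log2 ratio of -0.74 [-1.01 to -0.48], and 16.4%, 8.39% and 14.7% of cells had a UMI after thinning. The VEC-like class held cluster 15 (Vwf and Sele), with 313, 242 and 123 cells in CON, UV and Rux. It also held cluster 24 (Gpihbp1 and Cd36), with 92, 232 and 55. The part of this makeup in the ratio was not tested. Lymphatic endothelial-like (LEC-like) cells had 31.5, 39.4 and 44.7 CPM. FB-like cells had pooled levels of 9.35, 9.82 and 7.99 CPM, with 1.64% to 2.27% of cells positive. For UV over CON, 1 of the 4 FB-like clusters with enough counts was at least 2-fold higher and 1 at least 2-fold lower. The same counts held for Rux over UV, and for Rux over CON 0 of 3 passed.

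In the epithelium Ptgs1 marked the suprabasal keratinocyte-like (KS-like) cells. In CON 253 KS-like cells had 199.6 CPM [188 to 211], 29.2% of them positive after thinning, and held 44.4% of all Ptgs1 UMIs of the library. UV had 4 KS-like cells and Rux 17, at 134 CPM [87.3 to 196] and 155 CPM [124 to 192]. The EPI-like level was 21.5 CPM in CON, 6.61 in UV and 10.3 in Rux. Its log2 ratios were -1.70 [-1.87 to -1.53] for UV and -1.06 [-1.21 to -0.91] for Rux over CON. With the epithelial clusters given their CON shares these ratios were -0.23 and -0.21. These values carry no interval, and their KS-like part rests on the 4 cells of UV and the 17 of Rux. UHF-like cells had 57.4, 40.9 and 44.5 CPM and KB-like cells 25.1, 26.9 and 40.0, each ratio within 2-fold.

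Ptges, the inducible prostaglandin E synthase, was highest in FB-like, DP-like and MAC-like cells. Their means over the libraries were 96.9, 88.6 and 67.3 CPM, against 7.93 in the median class. FB-like cells had 101 CPM [97.2 to 105] in CON, 91.7 [88.8 to 94.8] in UV and 97.7 [95.1 to 100.3] in Rux, with 18.0%, 16.3% and 16.3% of cells positive. UV was lower than CON by a log2 ratio of -0.14, and in 7 of 8 FB-like clusters. DP-like cells had 63.1, 111 and 92.1 CPM. KB-like cells had 93.5, 90.8 and 70.1 CPM and KS-like cells of CON 133, the highest of the epithelial clusters in that library. The EPI-like class as a whole had 34.7, 26.2 and 22.6 CPM. VEC-like cells, which had next to none, were positive in 1.06%, 0.466% and 0% of cells, at medians of 5365, 5812 and 6582 UMIs.

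MAC-like Ptges differed most between libraries. It was at 29.2 CPM [20.7 to 40.1] in CON, 49.7 [38.2 to 63.6] in UV and 123 [111 to 136] in Rux, a log2 ratio of 1.30 [0.92 to 1.71] for Rux over UV and 2.06 [1.59 to 2.60] for Rux over CON. The marker sums given for MAC-like Ptgs2 belong to the same cells. In Rux, Ptges was detected in 45 of 221 MAC-like cells with Ptgs2 (20.4%) and in 13 of 144 without (9.03%) after thinning. In FB-like cells the same shares were 19.8% and 16.2% in CON, 18.0% and 14.9% in UV and 18.4% and 14.6% in Rux. Cells share a library and are not replicates, so these shares carry no test. The closest gene to Ptges across the 38 sums was Hpgd (r = 0.76).

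Ptgds was a melanocyte-like gene in this skin. MEL-like cells had 4488 CPM [4423 to 4555] in CON (141 cells) and 5702 [5553 to 5854] in UV (58 cells), and the 29 MEL-like cells of Rux had 9638 [9357 to 9926]. After thinning 95.7% of these cells in CON and 96.4% in UV had a UMI, and MEL-like cells held 94.7% and 80.8% of the Ptgds UMIs of these libraries. Its 3 closest genes were the pigment cell genes Mlana (r = 0.94), Pmel (0.93) and Dct (0.90). Over all retained cells Ptgds was at 134, 59.4 and 43.9 CPM, log2 ratios of -1.18 for UV and -1.61 for Rux over CON, while MEL-like cells made up 1.31%, 0.567% and 0.312% of cells. Elsewhere it was low, with 6.20, 12.6 and 5.29 CPM and 1.60%, 2.70% and 1.01% of cells positive in FB-like cells. EPI-like cells were positive in 0.80%, 1.53% and 1.01%. The FB-like level was higher in UV than in CON in 8 of 8 FB-like clusters and lower in Rux than in UV in 9 of 9, of which 2 had enough counts to be read. The level of free RNA was not estimated, and its part in these low values was not tested. DP-like cells had 3.94, 21.5 and 5.75 CPM, and the summed melanocyte markers in them (6 of 6 detected) were at 60.4, 229 and 219 CPM, whose part was not tested.

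Ptgis, the prostacyclin synthase, had enough counts for a comparison in FB-like cells and in no other class. These cells held 91.3%, 95.6% and 97.7% of its UMIs. Their level was 44.6 CPM [41.96 to 47.4] in CON, 51.8 [49.6 to 54.1] in UV and 36.3 [34.7 to 37.9] in Rux. The log2 ratios were 0.22 [0.11 to 0.33] for UV over CON and -0.51 [-0.60 to -0.42] for Rux over UV. With the FB-like clusters given their CON shares both were -0.07, so that the sign of UV over CON turned. Within FB-like cells it was high in cluster 5 (95.3, 91.1 and 107 CPM) and cluster 2 (Thbs4 and Cilp, 88.3, 82.2 and 84.1), and it was at 1.57, 4.17 and 1.90 CPM in cluster 13 (Igfbp2 and Grem1). EPI-like cells had 0.324, 0.763 and 0.429 CPM. VEC-like cells, the endothelium for which prostacyclin is best known, had 0, 8 and 1 UMIs, where 3 UMIs in CON would be 1.15 CPM. Its closest gene was Lhx8 (r = 0.83).

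Hpgd, the enzyme that inactivates prostaglandins, was highest in DP-like cells (253, 259 and 95 cells in CON, UV and Rux) at 144 CPM [134 to 154] in CON, 71.1 [63.5 to 79.4] in UV and 90.4 [74.3 to 109] in Rux. FB-like cells had 82.6 [79.0 to 86.4], 34.8 [33.0 to 36.7] and 87.6 [85.1 to 90.04] CPM, and 6.57%, 4.53% and 8.89% of cells were positive after thinning. The UV library thus was low and the pooled Rux level was near that of CON, with log2 ratios of -1.25 [-1.35 to -1.15] for UV over CON, 1.33 [1.25 to 1.42] for Rux over UV and 0.08 [0.01 to 0.16] for Rux over CON. UHF-like cells had 38.9, 12.8 and 19.3 CPM, lower by -1.60 [-2.06 to -1.18] in UV over CON.

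FB-like Hpgd UMIs lay in few cells. Of the 7 FB-like clusters with enough counts, 2 were at least 2-fold lower for UV over CON and none higher. For Rux over UV 2 of 7 were at least 2-fold higher and none lower. How much of the pooled ratios each cluster accounts for was not tested. The 5% of FB-like cells with most Hpgd held 79.5%, 75.4% and 66.8% of its UMIs. Cluster 4 (Cthrc1 and Myo16) had 442 CPM [409 to 478] in CON (131 cells), 58.0 [52.2 to 64.3] in UV (577 cells) and 212 [204 to 219.7] in Rux (898 cells). Cluster 1 (Saa3, Hp and Mmp3) had 33.4, 11 and 49.3 CPM. Both were lowest in UV, whereas cluster 14 (157, 159.6 and 180.5 CPM) and cluster 0 (25.6, 24.98 and 21.9) hardly differed. Cluster 4 made up 3.86% of FB-like cells in CON, 11.3% in UV and 17.9% in Rux. With the clusters given their CON shares, the log2 ratio for UV over CON was -0.74, that for Rux over UV 0.15 and that for Rux over CON -0.58, of the other sign. Rux was over 2-fold lower than CON in 2 of the 7 FB-like clusters with enough counts. In all 3 libraries Hpgd was less often found in FB-like cells with Ptgs2 than in those without. The shares were 5.65% against 7.45% in CON, 2.66% against 6.07% in UV and 6.16% against 11.2% in Rux. In CON their intervals overlapped (4.57% to 6.90% against 6.23% to 8.82%). These shares pool clusters that differ in both genes, such as cluster 14, where Ptgs2 was at 21.3, 39.0 and 54.7 CPM. The part of cluster makeup was not tested.

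**Figure D4:**
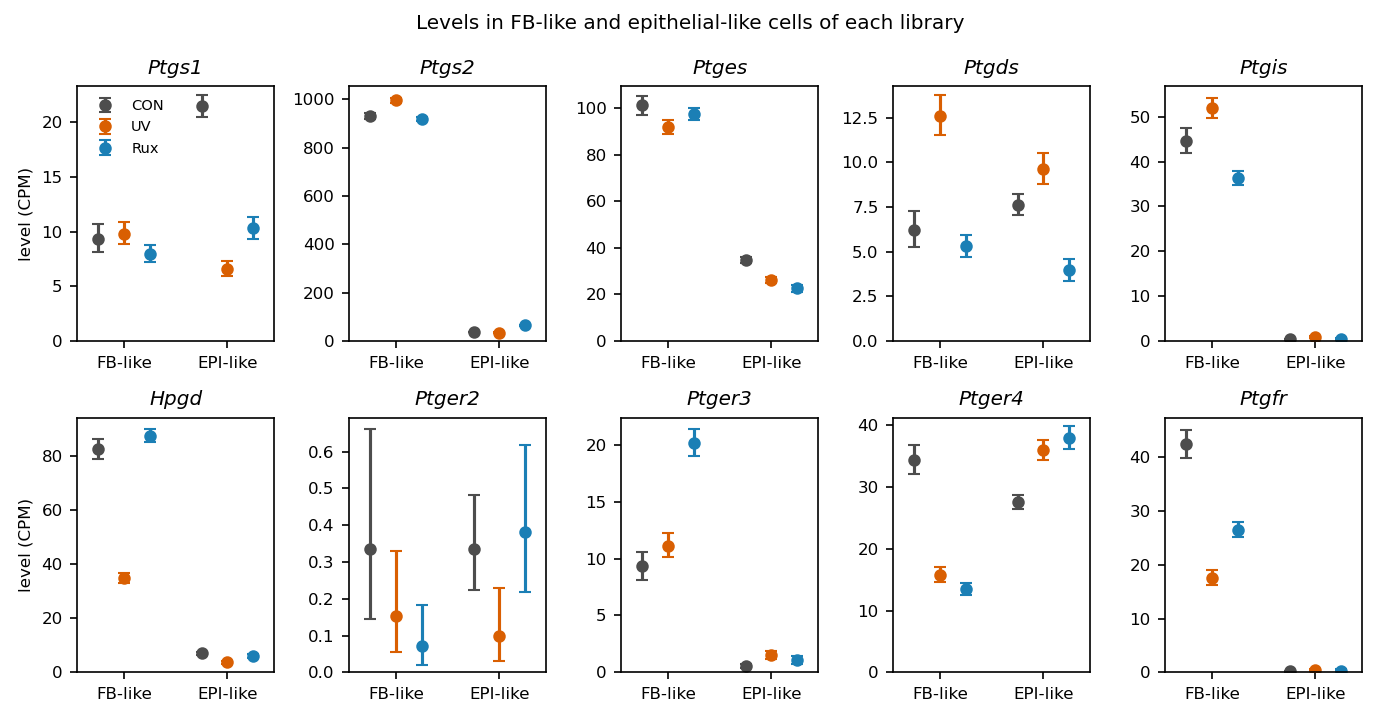
Level in CPM (y axis, from 0) of each of the 10 genes in FB-like and EPI-like cells of the CON, UV and Rux libraries, with exact 95% Poisson intervals as bars. FB-like Hpgd, Ptger4 and Ptgfr are over 2-fold lower in UV than in CON, Ptgs2 and Ptges are within 2-fold, and Ptgs1 differs in EPI-like cells.

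Of the receptors, Ptger2 (EP2) was found in myeloid classes. MAC-like cells had 26.9 CPM [18.7 to 37.4] in CON, 43.4 [32.7 to 56.5] in UV and 45.1 [38.1 to 52.9] in Rux. NEU-like cells had 23.4 CPM in CON from 3 UMIs and 56.7 in Rux from 43. FB-like cells had 8, 6 and 4 UMIs in all, at most 0.335 CPM. The antisense gene Gm17173, which covers Ptger2, was at 8.45, 11.05 and 13.0 CPM in MAC-like cells and was its second closest gene (r = 0.88, after Ccdc180 at 0.89), so the Ptger2 level is uncertain.

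Ptger3 (EP3), a receptor that lowers cyclic AMP, marked DP-like cells at 99.8 CPM [91.7 to 109] in CON, 70.0 [62.5 to 78.2] in UV and 99.5 [82.5 to 119] in Rux, with 16.9%, 14.6% and 21.7% of cells positive. Mast cell-like (MC-like) cells had 60.6, 52.2 and 48.5 CPM from 5, 22 and 30 UMIs, and PCY-like cells 22.7, 19.5 and 30.3. FB-like cells had 9.31, 11.1 and 20.1 CPM, a log2 ratio of 1.11 [0.90 to 1.33] for Rux over CON and 0.85 [0.69 to 1.02] for Rux over UV. With the clusters given their CON shares these ratios were 0.80 and 0.14, and with equal weight per cell the Rux over CON ratio was 0.97, so the 2-fold call was lost under both. Most of this came from cluster 14, with 23.6 CPM [17.6 to 31.0] in CON, 59.5 [50.2 to 70.0] in UV and 90.8 [82.8 to 99.4] in Rux, and cluster 13, with 7.34, 29.2 and 24.9. In 5 of the 8 FB-like clusters the Rux level was lower than in CON.

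Ptger4 (EP4), which raises cyclic AMP, was the receptor found in most classes. MAC-like cells had 104 CPM [86.9 to 123] in CON, 67.9 [54.3 to 83.8] in UV and 37.5 [31.2 to 44.7] in Rux, a log2 ratio of -1.47 [-1.83 to -1.10] for Rux over CON and of -0.61 [-1.02 to -0.21] for UV over CON. In the same cells the dendritic and Langerhans cell marker sums given above, which share Cd74, were lowest in Rux. The epithelial markers (13 of 13 detected) were at 621, 271 and 312 CPM. The part of these markers was not tested. FB-like cells had 34.4 [32.1 to 36.8], 15.8 [14.6 to 17.1] and 13.4 [12.5 to 14.4] CPM, log2 ratios of -1.12 [-1.27 to -0.97] for UV and -1.36 [-1.5 to -1.21] for Rux over CON. The lower FB-like levels were seen in most clusters. Rux was below CON in 7 of 8 FB-like clusters, as in cluster 2 with 44.6, 19.5 and 7.93 CPM and cluster 0 with 34.6, 15.6 and 8.50. At CON cluster shares the Rux over CON ratio was -1.37 and the UV over CON ratio -0.66. Summed epithelial markers in FB-like cells (13 of 13 detected in each library) were also highest in CON, at 574 CPM against 238 in UV and 260 in Rux, and so were B and plasma cell markers (5, 5 and 4 of 5 detected, Cd79b at 0 in Rux) at 247, 10.4 and 2.10 CPM. Their part in the FB-like ratios was not tested.

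Epithelial Ptger4 was not lower in the irradiated libraries. EPI-like cells had 27.6, 36.0 and 38.0 CPM, log2 ratios of 0.38 [0.29 to 0.47] for UV and 0.46 [0.37 to 0.55] for Rux over CON. UHF-like cells led with 67.9, 86.2 and 90.3 CPM, and IRS-like cells stayed at 47.2, 50.1 and 51.5. Lymphocyte-like (LYM-like) cells had 46.9, 62.8 and 67.0 CPM. Of the 252 LYM-like cells of CON, 87 were in cluster 41 (Trdc and Trdv4), which held 1 cell in UV and 1 in Rux. The part of this makeup was not tested. The difference between FB-like and EPI-like ratios has no replicate and was not tested.

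Ptgfr (FP) was found in FB-like and DP-like cells, with ratios of opposite sign. FB-like cells had 42.3 CPM [39.8 to 45] in CON, 17.6 [16.3 to 18.9] in UV and 26.4 [25.1 to 27.8] in Rux, with 7.37%, 3.30% and 4.70% of cells positive. DP-like cells had 26.7 [22.6 to 31.3], 76.5 [68.6 to 85.1] and 113 [95.3 to 134] CPM, with 9.27%, 12.6% and 17.4% positive, against at most 0.0631% of EPI-like cells. In DP-like cells the summed B and plasma cell markers were at 5.73, 293 and 5.75 CPM (4, 3 and 3 of 5 detected). Erythroid markers were at 3.94, 420 and 41.9 CPM (6, 5 and 4 of 6 detected). The fibroblast markers (7 of 7) were at 2809, 2556 and 1654 CPM. The part of these markers was not tested. The log2 ratios for UV over CON were -1.27 [-1.41 to -1.13] in FB-like and 1.52 [1.24 to 1.81] in DP-like cells. FB-like Ptgfr was highest in cluster 13, with 126, 76.2 and 79.4 CPM, and that cluster made up 11.1% of FB-like cells in CON, 1.43% in UV and 5.62% in Rux. In cluster 0 it was level at 33.8, 31.0 and 35.9 CPM, and at CON cluster shares the FB-like UV over CON ratio was -0.37. EPI-like cells had at most 0.372 CPM. The closest genes were Prr16 (r = 0.91), Pappa2 (0.89) and the fibroblast marker Pdgfra (0.88).

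**Figure D5:**
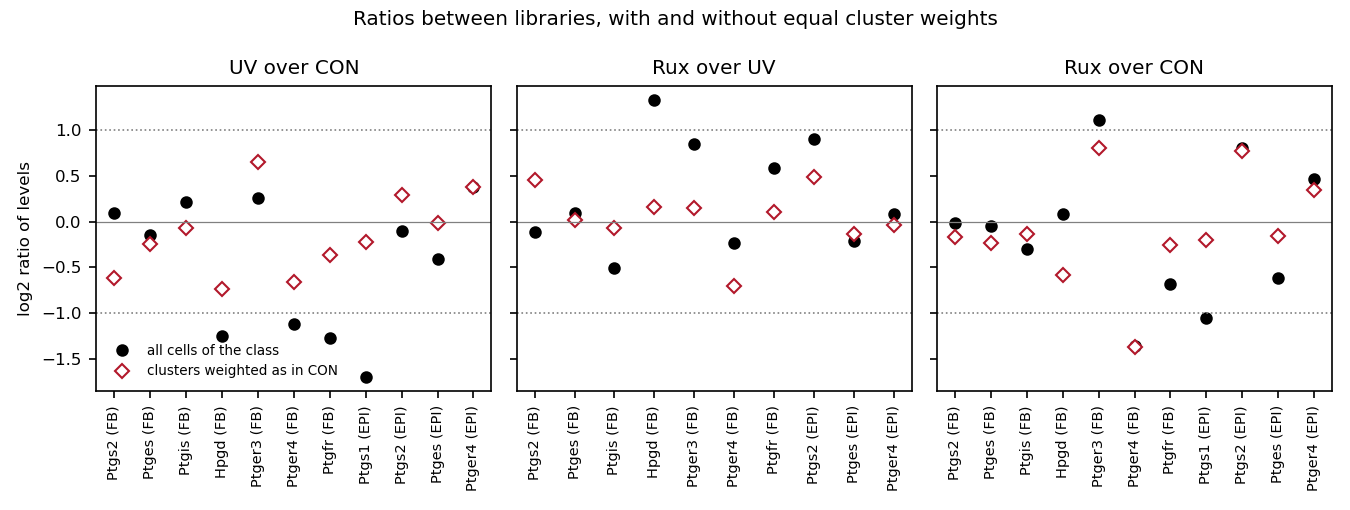
Log2 ratio between libraries (y axis) of each gene with enough counts in FB-like and EPI-like cells (x axis), over all cells of the class (filled points) and with its clusters given their CON shares (open diamonds); dotted lines mark 2-fold. Hpgd in Rux over UV goes from 1.33 to 0.15, while Ptger4 in Rux over CON stays at -1.36 and -1.37. Ptgs1 in EPI-like cells goes from -1.70 to -0.23 for UV over CON. The EPI-like diamonds rest in part on 4 KS-like cells of UV and 17 of Rux.

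Counted over the members, a gene was read only where the 2 libraries of a comparison averaged 10 CPM or more and together held 20 UMIs or more, and called at 2-fold. In FB-like cells 3 of 7 members passed for UV over CON, all lower (Hpgd, Ptger4 and Ptgfr), where 4.55% of all 8397 genes read passed in either direction and 2.25% as lower. For Rux over UV 1 of 7 passed (Hpgd, background 2.34%), and for Rux over CON 2 of 7 (Ptger3 higher and Ptger4 lower, background 5.7%). The members' median log2 ratios were -0.14, 0.09 and -0.05 against -0.11, 0.03 and -0.08 over all genes read. In EPI-like cells 1 of 4 passed for UV over CON (background 2.40%), 0 of 3 for Rux over UV (0.892%) and 1 of 4 for Rux over CON (4.19%), each time Ptgs1 where any did. In MAC-like cells 0 of 6 passed for UV over CON (7.01%), 4 of 6 for Rux over UV (7.43%) and 3 of 5 for Rux over CON (14.5%). In DP-like cells 4 of 7 passed for UV over CON (8.64%), 1 of 8 for Rux over UV (4.98%) and 2 of 6 for Rux over CON (16.1%). Over all retained cells 2 of 7 passed for UV over CON (4.76%), 1 of 9 for Rux over UV (2.28%) and 3 of 8 for Rux over CON (11.2%). Members that passed the count filter in a class are not all members, and the comparisons share libraries. The members were also chosen with earlier results of these data known.

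A wider list of 34 genes of the pathway held phospholipases, other synthases, transporters, reductases, other receptors and the lipoxygenase branch. In FB-like cells 1 of 10 with enough counts was at least 2-fold higher for UV over CON (2.3% of all genes read were) and none lower, 1 of 11 was lower for Rux over UV (1.63%) and 0 of 10 passed for Rux over CON (5.7% in either direction). Both were Akr1c18, an aldo-keto reductase, at 5.66 CPM in CON, 22.7 in UV and 5.90 in Rux, log2 ratios of 2.00 [1.74 to 2.28] and -1.94 [-2.13 to -1.76]. Cluster 5, whose share of FB-like cells differed as given above, held 75.6%, 88.8% and 84.0% of the FB-like Akr1c18 UMIs, and within it the levels were 131, 85.6 and 67.3 CPM. With the clusters given their CON shares the ratios were -0.14, of the other sign, and -0.79. In EPI-like cells 2 of 11 were lower for UV over CON (1.11% of all genes read): the secreted phospholipase Pla2g2f at 22.1, 10.5 and 18.7 CPM, and the prostamide synthase Prxl2b at 21.6, 8.43 and 10.0 CPM. For Rux over UV 0 of 10 passed (0.892%), and for Rux over CON 1 of 11 was lower (1.61%), again Prxl2b. In CON the KS-like cells, few in the other libraries, held 51.2% of the EPI-like Pla2g2f UMIs and 58.8% of those of Prxl2b. With the epithelial clusters given their CON shares the UV over CON ratios were -0.21 and -0.27. That of Prxl2b for Rux over CON was -0.63, so none passed 2-fold. The KS-like part of these weighted values rests on 4 cells in UV and 17 in Rux.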

How the data were processed

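Each of the 3 single-cell libraries was deposited by the authors as a matrix of UMI counts per gene and cell. The submitters' processing notes name Cell Ranger 6.1.2, Seurat 5.3.0 and the mm10 genome, while the matrix headers name Cell Ranger 7.0.0; whether introns were counted is not given in the sources used here. Cells were kept from 200 genes upward and with no more than 10% of UMIs from mitochondrial genes, and doublets were removed with Scrublet (scanpy 1.11.5) at 0.8% per 1000 cells (1269, 1128 and 923 cells in CON, UV and Rux). Clusters were built with Seurat 5.3.0 in R 4.3.3 on 2000 variable genes, without the members and the wider pathway genes, with 30 components and resolution 1.5. A cluster was named after the marker list with the highest mean log2(CPM + 10) above the mean of all clusters, given at least 3 markers in at least 10% of its cells. It stayed unnamed where UMIs were few, a second list lay within 1 log2 unit or another list led its genes, a rule set after the clusters were seen. UMIs were summed per class and library and scaled to CPM. Log2 ratios used sums with 0.5 UMI added and an exact 95% interval given the total. Genes were called at 2-fold where the libraries averaged 10 CPM or more and held 20 UMIs or more in sum. No p-value was computed, since each condition had 1 library. All members were named. Of the wider list, genes with at least 10 CPM in FB-like or epithelial-like cells and a 2-fold difference were named. So were those with at least 10 CPM in the leading class that lay at least 10-fold above the median class. For some members, up to 3 of the genes closest by Pearson r were given. The members and lists were chosen with earlier results of these data known. Of 32285 feature IDs 32158 matched GENCODE M21, all 10 members included. Analyses ran in Python 3.11.15 with numpy 2.4.6, pandas 2.3.3 and scipy 1.17.1, and the scripts were tested on simulated counts. The 9 planned and 2 added alternatives are given at the end.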

Additional observations from a re-analysis of the deposited data

Results flagged for a closer look

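Ratios of the same gene and comparison lay past 2-fold in opposite directions in different classes, with counting intervals that exclude 0. None of these differences between classes has a replicate, and none was tested. Ptgfr for UV over CON had a log2 ratio of -1.27 in FB-like and 1.52 in DP-like cells. With the FB-like clusters given their CON shares the FB-like ratio was -0.37, within 2-fold. Hpgd for Rux over UV was 1.33 in FB-like and -1.11 in MAC-like cells, the latter from 46 and 38 UMIs. At CON cluster shares its FB-like ratio was 0.15, also within 2-fold. Ptgs2 for UV over CON was higher in DP-like (1.50) and myogenic progenitor-like cells (1.47, from 19 and 18 UMIs) and lower in VEC-like (-1.23) and PCY-like cells (-1.82). For Rux over CON it was higher in MAC-like (1.18) and lower in PCY-like (-1.91) and LYM-like cells (-1.10). For Rux over UV it was higher in MAC-like (1.01) and lower in LYM-like cells (-1.37, from 54 and 94 UMIs). The VEC-like class pooled clusters in unlike proportions between libraries, and so did the LYM-like class between CON and the others, as given above. DP-like cells of UV also held more erythroid and B and plasma cell marker counts than those of CON. The part of these differences in makeup and markers was not tested.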

How the results depend on the processing

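No paired analysis was possible because each condition had 1 library, and no library could be left out of a comparison. Of 309 alternative values for 32 member ratios in FB-like and EPI-like cells, 296 kept their direction, and no ratio past 2-fold changed sign. The shares over all genes given above belong to the main settings only. The counts below thus describe how the settings act and are not a result about the members. Counts of members past 2-fold moved as follows. With 10 UMIs and no CPM minimum, FB-like counts were 5 in place of 3 for UV over CON and 3 in place of 1 for Rux over UV, and EPI-like counts 4 in place of 1 for UV over CON and 2 in place of 0 for Rux over UV. With equal weight per cell, FB-like counts were 2 for Rux over UV and 1 in place of 2 for Rux over CON. With FB-like clusters weighted as in CON they were 0 for UV over CON and 1 for Rux over CON. FB-like Hpgd lost its 2-fold call for UV over CON under both of these weightings. Its call for Rux over UV was lost with clusters weighted as in CON. For EPI-like cells, weighting clusters as in CON, chosen after seeing the data, gave 0 for UV over CON and 0 for Rux over CON. That weighting rests in part on 4 KS-like cells in UV and 17 in Rux. A stricter cell filter and median-of-ratios scaling each gave 0 for Rux over CON in EPI-like cells. Median-of-ratios scaling shifted all FB-like ratios for UV over CON by 0.11 log2. Weighting the called genes of the wider list and the called immediate-early genes in the same way was chosen after seeing the data too. Adding the low-UMI cluster 3 to the FB-like cells was also chosen after seeing the data and moved no count by over 1.5 times. The Ptger4 ratio in FB-like cells for Rux over CON ran from -1.42 to -1.28 over its alternatives, and that of Hpgd for UV over CON from -1.39 to -0.74. The limits are 1 library per condition, few MAC-like, DP-like, MEL-like and KS-like cells, and classes rebuilt from markers.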

Other observations

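Genes of the wider list, which act beside the members, had leading classes of their own. Hpgds, the haematopoietic prostaglandin D synthase, was at a mean of 621 CPM in MC-like cells over the libraries, 315-fold the median class, where Ptgds was at most 35.6 CPM. Tbxas1, the thromboxane synthase, led in MAC-like cells at 93.0 CPM, with a lowest library of 36.9. The prostacyclin receptor Ptgir led in PCY-like cells at 98.2 CPM, followed by DP-like cells at 74.0, while the synthase Ptgis was found in FB-like cells. The prostaglandin transporter Slco2a1 led in VEC-like cells at 464 CPM and LEC-like cells at 407. The phospholipase Pla2g4a, which frees arachidonic acid, led in MAC-like cells at 83.2 CPM and was at 53.7 in FB-like cells.

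Of the lipoxygenase branch, which makes leukotrienes and hydroxy acids, Alox5ap led in NEU-like cells at 865 CPM, Alox5 in MC-like cells at 52.3, Ltc4s in MAC-like cells at 14.9 and Alox12e in EPI-like cells at 34.9. The secreted phospholipases Pla2g2e and Pla2g2f led in MEL-like cells at 23.8 CPM and in EPI-like cells at 17.1.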
